A study of Homo sapiens with 14 samples.

Results

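The response of a neuroblastoma line to a low dose of cobalt was read from 4 of the 14 RNA-seq libraries of the series, 2 treated with 10 µM CoCl2 and 2 given water (H2O). The libraries of each group were identified by their labels, and the 19923 genes of each count table were the features. The cells were SK-N-BE2 (BE2), a MYCN-amplified human neuroblastoma line, labelled wild type (WT), and every group used here came from this 1 line, grown in RPMI1640 with fetal bovine serum. The labels give no length of treatment. They place both groups in batch 1 together with 2 libraries of cells given 50 µM CoCl2, whose levels are set beside those at 10 µM. The other 8 libraries, of batch 2, carry TET2 knockouts or their WT control and were not used. The labels do not say that replicates were separate cultures, so the p-values measure the spread between these libraries only, which may be technical.

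Cobalt is a divalent metal that can take the place of iron in enzymes, among them the prolyl hydroxylases that mark hypoxia-inducible factors (HIF) for breakdown, and CoCl2 is therefore used to mimic low oxygen. Cells sense their iron through the iron regulatory proteins, made from ACO1 and IREB2, which bind hairpins called iron-responsive elements when iron is scarce. Bound hairpins in the 3′ UTR protect the mRNA of TFRC, the transferrin receptor that brings iron into the cell, and a bound hairpin in the 5′ UTR holds back translation of the ferritin mRNAs FTH1 and FTL, which encode the iron store. Metallothioneins are small metal-binding proteins whose genes are switched on by the zinc sensor MTF1 at metal-responsive elements. Sterol and fatty acid synthesis are set mainly by SREBF2 and SREBF1, which encode the transcription factors released when membrane sterol is low.

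The hairpins are printed because TFRC, FTL and FTH1 share this element and differed in their change at 10 µM. A loop of CAGTGN, flanked by 5 bases on each side that can pair and preceded by an unpaired C, was sought on the sense strand of GENCODE release 29 UTRs (GRCh38). It was found in the 3′ UTR of 113 of 13331 genes (0.848%) and in the 5′ UTR of 24 of 13151 genes (0.182%). The 3′ UTR of TFRC held 4 such hairpins. Only this exact pattern was sought, so iron-responsive elements that depart from it were not counted. The loop is in capitals, and each line is 1 hairpin with its flanks.
TFRC hairpin 1, 3′ UTR, chr3:196050978-196051007, minus strand: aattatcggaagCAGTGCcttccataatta
TFRC hairpin 2, 3′ UTR, chr3:196050574-196050603, minus strand: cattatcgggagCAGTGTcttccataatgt
TFRC hairpin 3, 3′ UTR, chr3:196050509-196050538, minus strand: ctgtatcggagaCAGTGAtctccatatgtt
TFRC hairpin 4, 3′ UTR, chr3:196050462-196050491, minus strand: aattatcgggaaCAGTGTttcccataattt
FTH1 hairpin, 5′ UTR, chr11:61967573-61967602, minus strand: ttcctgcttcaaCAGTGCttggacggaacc
FTL hairpin, 5′ UTR, chr19:48965335-48965364, plus strand: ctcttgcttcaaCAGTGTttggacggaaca
SLC40A1 hairpin, 5′ UTR, chr2:189580660-189580689, minus strand: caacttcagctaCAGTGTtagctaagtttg
All counts are over genes tested. Of the 113 with a hairpin in the 3′ UTR, 22 were called higher and 9 lower at 10 µM, where 11.6% and 11.1% of all genes were, and their median log2 fold change was 0.017, against 1.09 for TFRC. Of the 24 with one in the 5′ UTR, 3 were called higher and 21 were not called, with a median of 0.027.

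The metallothionein promoters are printed because MT1X and MT2A were the 2 metallothionein genes called at 10 µM. The core of the metal-responsive element was sought as TGCGCNC or TGCACNC on both strands of RefSeq promoter windows (GRCh38.p14, 250 bases before to 50 after a start). It was present in all 5 metallothionein genes with a window, against 46.2% of tested genes with a window and 33.4% of all 27305 genes, and all 5 held at least 2 matches, against 15.6% and 10.2%. With TGCGCNC alone, 3 of the 5 held a match, against 36.8% and 23%. Only 4 metallothionein genes were tested and 2 called, so the 5 include genes not called and genes with too few counts to test. The 200 bases before each start are shown with matches to either core, on either strand, in capitals.
MT1X, chr16:56682270-56682469, plus strand: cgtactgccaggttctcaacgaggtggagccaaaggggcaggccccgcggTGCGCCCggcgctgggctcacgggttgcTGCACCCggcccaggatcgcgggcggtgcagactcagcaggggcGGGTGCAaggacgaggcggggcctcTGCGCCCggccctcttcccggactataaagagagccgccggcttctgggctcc
MT2A, chr16:56608384-56608583, plus strand: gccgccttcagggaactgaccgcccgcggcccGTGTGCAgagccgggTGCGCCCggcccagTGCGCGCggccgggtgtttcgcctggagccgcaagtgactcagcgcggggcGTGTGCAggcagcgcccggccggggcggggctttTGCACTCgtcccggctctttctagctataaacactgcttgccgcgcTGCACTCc
MT1X held 4 matches in this stretch and MT2A held 6.

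Total counts were 35319857 to 39540111 in the 4 libraries and 31214128 to 35692351 in the 50 µM libraries. The cells carried the transcripts that mark adrenergic neuroblasts, with CHGA, HAND2, PHOX2A, GATA3 and TH between 149.6 and 2236 CPM (TMM-scaled counts relative to library size) in each of the 4 libraries. The mesenchymal identity list, whose genes mark the other cell state of neuroblastoma lines, summed to 2076 to 2081 CPM in H2O and 2119 CPM in both 10 µM libraries, beside 2490.3 to 2525 and 2539 to 2559 CPM for the adrenergic list. Most of the mesenchymal sum was VIM, at 1134 and 1139 CPM in H2O and 1165 and 1161 CPM at 10 µM. In the same list, FN1, COL1A1 and PRRX1 were at 9.19 CPM or less in each of the 4 libraries, and COL1A2 was at 0. The sums therefore do not show equal expression of the 2 programmes. Markers of cell types outside the lineage summed to less than either list. Leukocyte markers summed to 5.87 to 6.29 CPM in H2O and 8.46 to 8.86 CPM at 10 µM. Most of this sum was CD68, at 5.31 and 5.09 CPM in H2O and 7.92 and 7.92 CPM at 10 µM. It was the 1 called of 3 leukocyte markers tested, whose median log2 fold change was -0.32. In the same order, endothelial markers summed to 18.9 to 19.5 and 16.2 to 16.6 CPM and erythroid markers to 15.2 to 16.1 and 12.7 to 14.1 CPM. Schwann cell markers summed to 80.1 to 81.0 and 79.9 to 82.7 CPM. The defining genes PTPRC, HBA1 and HBB were at 0 in all 4 libraries. In bulk RNA, fewer cells of a kind and less RNA per cell cannot be told apart.

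At 10 µM CoCl2, 3098 of 13636 genes tested were called (22.7%), at an adjusted p under 0.05 in edgeR, 1586 higher (11.6%) and 1512 lower (11.1%). The changes were small: the median size among called genes was 1.10-fold, and 191 genes (1.4%) changed by at least 1.5-fold, 47 upward and 144 downward, against 55 by DESeq2, 12 upward and 43 downward. More of these larger changes were falls than rises. DESeq2 called 1121 genes (8.22%; 4.5% higher and 3.73% lower), and the edgeR count was 1860 without 10 µM replicate 2 and 2063 without H2O replicate 1. Of the genes called higher, 573 kept the call whichever of the 4 libraries was left out, and 560 of those called lower did. Among the called genes named here, DESeq2 did not call SLC11A2, MELTF, NEO1, PCBP3, SLC30A1, SLC39A13, TCN2, INSIG2, SREBF1, MBTPS2, ABCG1, MYLIP, EGLN3, CA9, TH and EZH2. In every gene named with a call, the H2O and 10 µM libraries did not overlap, as was so for 29.4% of all genes in the upward direction and 29% downward.

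TFRC had the smallest adjusted p of all genes tested. It measured 414 and 419.5 CPM in H2O and 884 and 885 CPM at 10 µM (chromosome 3, 196027183 to 196082096, minus strand), with no overlap and a spread between replicates far smaller than the difference. The change was 2.12-fold (adjusted p 8.73e-121, log2 fold change 1.09 with SE 0.016). At 50 µM it was at 1680.2 and 1649 CPM, and the direct test between the doses gave a further 0.91 on the log2 scale (adjusted p 3.19e-114). The order of the groups was H2O, 10 µM and 50 µM in every library.

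**Figure D1:**
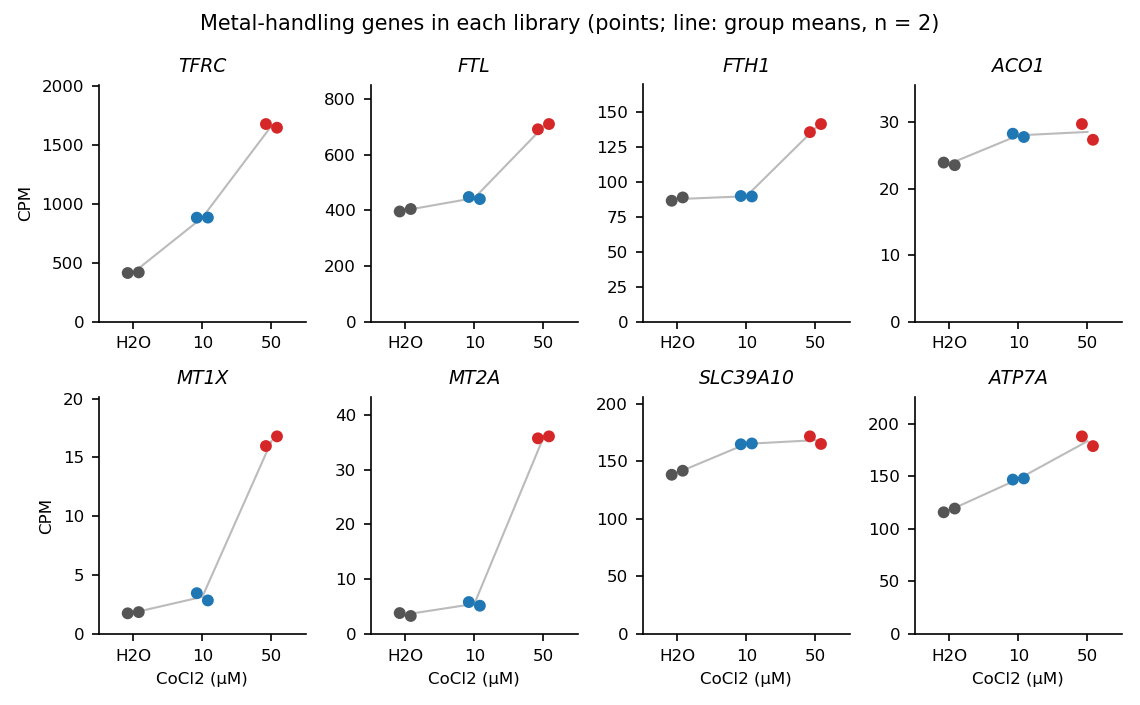
Level of 8 metal-handling genes (CPM, vertical axis from 0) in each library of H2O, 10 µM and 50 µM CoCl2, with a line through the group means. TFRC was at 414 and 419.5 CPM in H2O and 884 and 885 CPM at 10 µM, while FTH1 lay at 86.7 to 90.1 CPM in these 4 libraries.

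Few other genes of iron uptake were called. Of 8 members tested, 2 were called higher and 1 lower, with a median log2 fold change of -0.027 against -0.00066 for all genes. SLC11A2, the divalent metal transporter that also carries iron across membranes, measured 79.3 and 81.3 CPM in H2O and 85.2 and 86.9 CPM at 10 µM (adjusted p 0.00745, log2 fold change 0.10 with SE 0.03). MELTF, a transferrin-like surface protein, measured 17.3 and 17.8 CPM in H2O and 15.3 and 15.1 CPM at 10 µM (adjusted p 0.00591, log2 fold change -0.21 with SE 0.062). Neither gene's groups overlapped, but the calls were lost without 10 µM replicate 2 (adjusted p 0.142 and 0.0693), SLC11A2 also without H2O replicate 1 (0.126) and MELTF without H2O replicate 2 (0.0627). STEAP3, the reductase that frees iron from transferrin in endosomes, was at 38.9 and 36.8 CPM in H2O and 36.5 and 37.3 CPM at 10 µM and was not called (adjusted p 0.601). TFR2, the second transferrin receptor, was not called either (log2 fold change -0.075, adjusted p 0.411).

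Among genes of iron storage and export, FTL, the ferritin light chain, was the 1 called of 6 tested. It measured 396 and 405 CPM in H2O and 448 and 441 CPM at 10 µM (chromosome 19, 48965309 to 48966879, plus strand; adjusted p 4.62e-13, log2 fold change 0.15 with SE 0.017), a rise of 10.9%. FTH1, the heavy chain, was at 86.7 and 89.0 CPM in H2O and 90.1 and 89.7 CPM at 10 µM and was not called (log2 fold change 0.033, SE 0.029, adjusted p 0.464), and it overlaps BEST1 on the opposite strand. Both ferritin genes were higher at 50 µM than at 10 µM, by 0.66 for FTL and 0.63 for FTH1 on the log2 scale (adjusted p 9.09e-83 and 1.44e-50). SLC40A1, the iron exporter ferroportin, was at 3.24 and 3.56 CPM in H2O and 2.71 and 2.83 CPM at 10 µM (adjusted p 0.128), and HMOX1, which frees iron from heme, at 4.39 and 3.98 CPM in H2O and 3.65 and 3.37 CPM at 10 µM (adjusted p 0.137); neither was called. Ferritin genes have many processed copies in the genome, and how reads matching several places were counted is not given in the sources used here.

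Of 9 iron sensing and chaperone genes tested, 2 were called higher and 1 lower. ACO1, which encodes iron regulatory protein 1 in its iron-free form and an aconitase otherwise, measured 24 and 23.6 CPM in H2O and 28.3 and 27.8 CPM at 10 µM (adjusted p 6.44e-05, log2 fold change 0.24 with SE 0.05), and the call held without each of the 4 libraries. IREB2, the other iron regulatory protein, was not called at 237 and 234 CPM in H2O and 239.9 and 244 CPM at 10 µM (adjusted p 0.12), nor was FBXL5, which marks IREB2 for breakdown when iron is plentiful (adjusted p 0.566). NEO1, a co-receptor in hepcidin signalling (log2 fold change 0.086), and PCBP3, a relative of the iron chaperones PCBP1 and PCBP2 (-0.098), were called with all libraries present. The call of NEO1 was lost without any 1 of the 4 (adjusted p 0.091 to 0.244) and that of PCBP3 without H2O replicate 1 (0.132) or 10 µM replicate 2 (0.207).

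Mitochondrial iron, heme and iron-sulfur genes were near the background, with 2 of 25 higher and 2 lower. Of the 4 calls, 1 was also made by DESeq2. ALAS1, the first enzyme of heme synthesis, was at 28.6 and 28.4 CPM in H2O and 29.1 and 28.9 CPM at 10 µM (adjusted p 0.75). The mitochondrial iron importer SLC25A37 was not called at 10 µM (0.068, adjusted p 0.0855) and was higher at 50 µM than at 10 µM (0.35, adjusted p 4.81e-23).

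MT1X and MT2A rose, from low levels. Of 11 metallothionein genes in the list, 4 had enough counts to be tested, 2 were called higher, and the other 7 had at most 5 counts in any library. MT1X measured 1.76 and 1.87 CPM in H2O and 3.47 and 2.86 CPM at 10 µM (chromosome 16, 56682470 to 56684196, plus strand; adjusted p 3.26e-05, log2 fold change 0.79 with SE 0.16). MT2A measured 3.83 and 3.3 CPM in H2O and 5.84 and 5.17 CPM at 10 µM (chromosome 16, 56608584 to 56609497, plus strand; adjusted p 8.13e-06, log2 fold change 0.62 with SE 0.12). In both genes each 10 µM library lay above each H2O library, and both were called by DESeq2 and without each library. At 50 µM MT1X was at 16 and 16.8 CPM and MT2A at 35.7 and 36.0 CPM, so most of the rise in these genes lay between 10 and 50 µM (log2 difference 2.38 and 2.71, adjusted p 5.03e-55 and 1.35e-82). MT1F had 2 and 1 counts in the H2O libraries and 6 and 7 at 10 µM, 4.57 times as many per count sequenced, where an exact 95% interval for counting error alone runs from 1.26 to 25.0, and its adjusted p was 0.0528. MT1G was not called, with 18 and 13 counts in H2O and 20 and 17 at 10 µM. The members are close copies of each other, so reads may be split between them.

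Zinc transporters were called in both directions, 5 higher and 4 lower of 18 tested (3 and 0 by DESeq2), of which 3 and 1 held without each library in turn. The importer SLC39A10 measured 138 and 142 CPM in H2O and 165 and 165 CPM at 10 µM (adjusted p 2.72e-16, log2 fold change 0.24 with SE 0.024) and the related importer SLC39A6 119.5 and 126 CPM in H2O and 137 and 137 CPM at 10 µM (adjusted p 2.81e-07, log2 fold change 0.16 with SE 0.025). SLC39A3 rose by 0.20 (adjusted p 4.54e-05), and SLC39A13, which moves zinc out of the secretory pathway, fell by 0.16 on the log2 scale (adjusted p 0.00196; 0.114 by DESeq2). SLC30A1, the zinc exporter that MTF1 switches on, measured 66.4 and 67.9 CPM in H2O and 69.1 and 74.4 CPM at 10 µM (adjusted p 0.018), a call lost without H2O replicate 1 (0.17) or 10 µM replicate 2 (0.594). MTF1 itself was level at 27.3 and 29.2 CPM in H2O and 28.3 and 28.2 CPM at 10 µM (adjusted p 0.992). SLC39A14 and SLC39A8, importers that also carry iron, manganese and cadmium, were not called (adjusted p 0.628 and 0.816).

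Of 12 copper genes, 4 were higher and 1 lower (2 and 0 by DESeq2). ATP7A, the pump that exports copper, measured 116 and 119 CPM in H2O and 147 and 148 CPM at 10 µM (adjusted p 3.43e-24, log2 fold change 0.33 with SE 0.025). SLC31A1, the copper importer, measured 117 and 116 CPM in H2O and 126 and 126 CPM at 10 µM (adjusted p 2.13e-04, log2 fold change 0.11 with SE 0.026). ATP7A overlaps PGK1, a glycolytic HIF target, on the same strand. Cobalt is the metal of vitamin B12. Of 13 genes of B12 handling 2 were called, both lower (15.4%, against 11.1% of all genes), 1 of them also by DESeq2. CD320, the receptor for B12 bound to transcobalamin, measured 104 and 102 CPM in H2O and 93.6 and 94.7 CPM at 10 µM (adjusted p 1.22e-04, log2 fold change -0.13 with SE 0.028). TCN2, transcobalamin itself, was near 1 CPM (-0.77, adjusted p 0.0106), and its call was lost without H2O replicate 1 (0.111) or 10 µM replicate 2 (0.394).

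The enzymes of sterol synthesis were shifted upward by small steps. Of 22 tested, 11 were called higher and 11 were not called, with a median log2 fold change of 0.087; 6 of the 11 were also called by DESeq2, and 6 held without each library in turn. HMGCS1, which makes HMG-CoA at the head of the pathway, measured 468 and 465 CPM in H2O and 573 and 572 CPM at 10 µM (chromosome 5, 43287470 to 43313512, minus strand; adjusted p 5.99e-37, log2 fold change 0.29 with SE 0.017). IDI1, which isomerises the isoprene unit, measured 95.5 and 93.9 CPM in H2O and 114 and 111 CPM at 10 µM (adjusted p 4.68e-14, log2 fold change 0.25 with SE 0.027). In both genes the replicates lay close together and the groups did not overlap. FDFT1 and SQLE, the first enzymes committed to sterols, rose by 0.17 and 0.16 (adjusted p 4.68e-13 and 1.27e-11), MSMO1 by 0.11 (adjusted p 3.35e-05) and SC5D by 0.10 (adjusted p 1.33e-04).

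At 50 µM the same enzymes lay below water. Against H2O, 21 of the 22 were called lower at 50 µM in edgeR (31.1% of all genes were) and 1 was not called, with a median of -0.49. HMGCS1 was at 228 and 225 CPM there and IDI1 at 69.2 and 70.2 CPM. Both dose comparisons share the H2O libraries, so they are given side by side. In the direct test between doses, 20 of 22 were lower at 50 µM than at 10 µM (26.5% of all genes were), with a log2 difference of -1.34 for HMGCS1 and -0.69 for IDI1 (adjusted p 1.57e-123 and 4.12e-51).

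**Figure D2:**
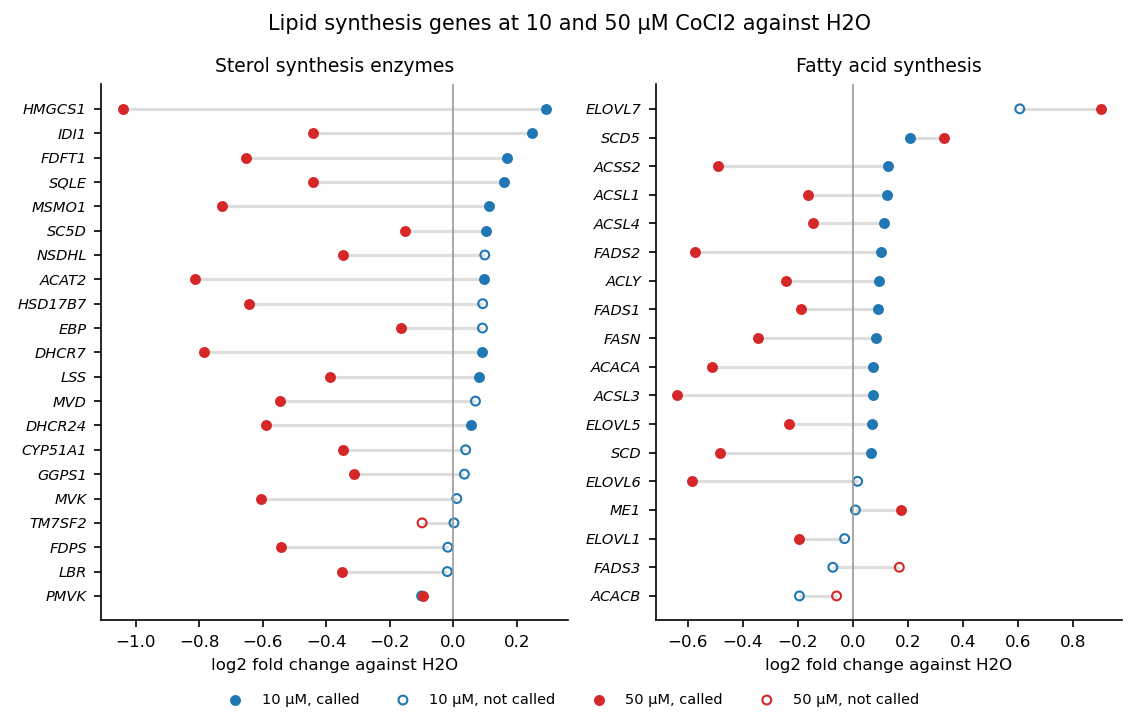
Log2 fold change against H2O at 10 µM (blue) and 50 µM (red) for the sterol synthesis enzymes and the fatty acid synthesis genes tested (1 sterol enzyme is not drawn), filled where the adjusted p was under 0.05. At 10 µM, 11 of 22 sterol and 12 of 18 fatty acid genes were called higher, and at 50 µM 21 and 13 were called lower.

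Genes that control sterol supply were mixed, with 4 higher and 3 lower of 11 tested (3 and 0 by DESeq2). INSIG1, a sterol-regulated gene whose protein holds SREBP in the endoplasmic reticulum, measured 77 and 76.9 CPM in H2O and 92.5 and 90.4 CPM at 10 µM (adjusted p 2.84e-12, log2 fold change 0.25 with SE 0.03). SREBF2 rose from 527 and 523 CPM to 555 and 559 CPM (adjusted p 1.29e-05, log2 fold change 0.085 with SE 0.016), and STARD4, a sterol carrier, rose by 0.10 (adjusted p 7.13e-05). The 3 lower calls, INSIG2 (-0.15), SREBF1 (-0.087) and MBTPS2 (-0.078), were all lost without H2O replicate 2 (adjusted p 0.139, 0.196 and 0.187), and those of SREBF1 and MBTPS2 also without each of the other 3 libraries (0.0526 to 0.27). The letters TCACNCCAC of a sterol element were in no window of the 17 sterol enzymes with one. They were in 1 of 11 sterol control genes, 1 of 19 fatty acid synthesis genes and 1.39% of all genes with a window. So rare a match cannot tell these lists from other genes, and only these exact letters were sought.

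Fatty acid synthesis genes were also higher in part, 12 of 18 called higher and 6 not called, 9 of the 12 also by DESeq2 and 7 held without each library in turn. FASN, the fatty acid synthase, measured 979.8 and 966 CPM in H2O and 1031 and 1033 CPM at 10 µM (adjusted p 1.01e-06, log2 fold change 0.085 with SE 0.015). ACLY, which makes cytosolic acetyl-CoA, measured 842 and 846 CPM in H2O and 903 and 900.4 CPM at 10 µM (adjusted p 7.91e-08, log2 fold change 0.094 with SE 0.015). SCD, the stearoyl-CoA desaturase, measured 1615 and 1613 CPM in H2O and 1686 and 1691 CPM at 10 µM (adjusted p 6.30e-05, log2 fold change 0.065 with SE 0.013). These were changes of a few percent, with no overlap between the groups. FADS2 rose by 0.10 and ACSL1 by 0.13 (adjusted p 4.90e-07 and 4.38e-06), while ELOVL6 was level (0.017, adjusted p 0.709). At 50 µM against H2O, 3 of the 18 were higher (30.4% of all genes) and 13 lower, and 13 were lower at 50 than at 10 µM.

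Targets of LXR, the receptors that respond to sterol excess, were called lower where they were called, 4 of 9 with 5 not called and a median of -0.20. Of the 4, DESeq2 also called 1 and 2 held without each library in turn. APOE, the lipoprotein that carries cholesterol out of cells, measured 3.47 and 3.13 CPM in H2O and 1.54 and 1.65 CPM at 10 µM (adjusted p 8.58e-08, log2 fold change -1.05 with SE 0.16), with no overlap. ABCG1, a sterol exporter, measured 35.4 and 34.9 CPM in H2O and 31.5 and 30.9 CPM at 10 µM (adjusted p 0.00131, log2 fold change -0.17 with SE 0.044), while DESeq2 gave an adjusted p of 0.0948. MYLIP, an LXR-induced ubiquitin ligase, fell by 0.30 on the log2 scale, a call lost without 10 µM replicate 2 (0.0525). ABCG8, another sterol exporter, was the fourth (adjusted p 0.0245), a call lost without any 1 of the 4 libraries (0.057 to 0.245), and DESeq2 gave it no adjusted p. ABCA1, the main cholesterol exporter, was at 3.5 and 3.23 CPM in H2O and 2.48 and 3.47 CPM at 10 µM and was not called (adjusted p 0.45). No LXR member was called higher by edgeR or DESeq2, and 0 had an unadjusted p under 0.05 in that direction.

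**Figure D3:**
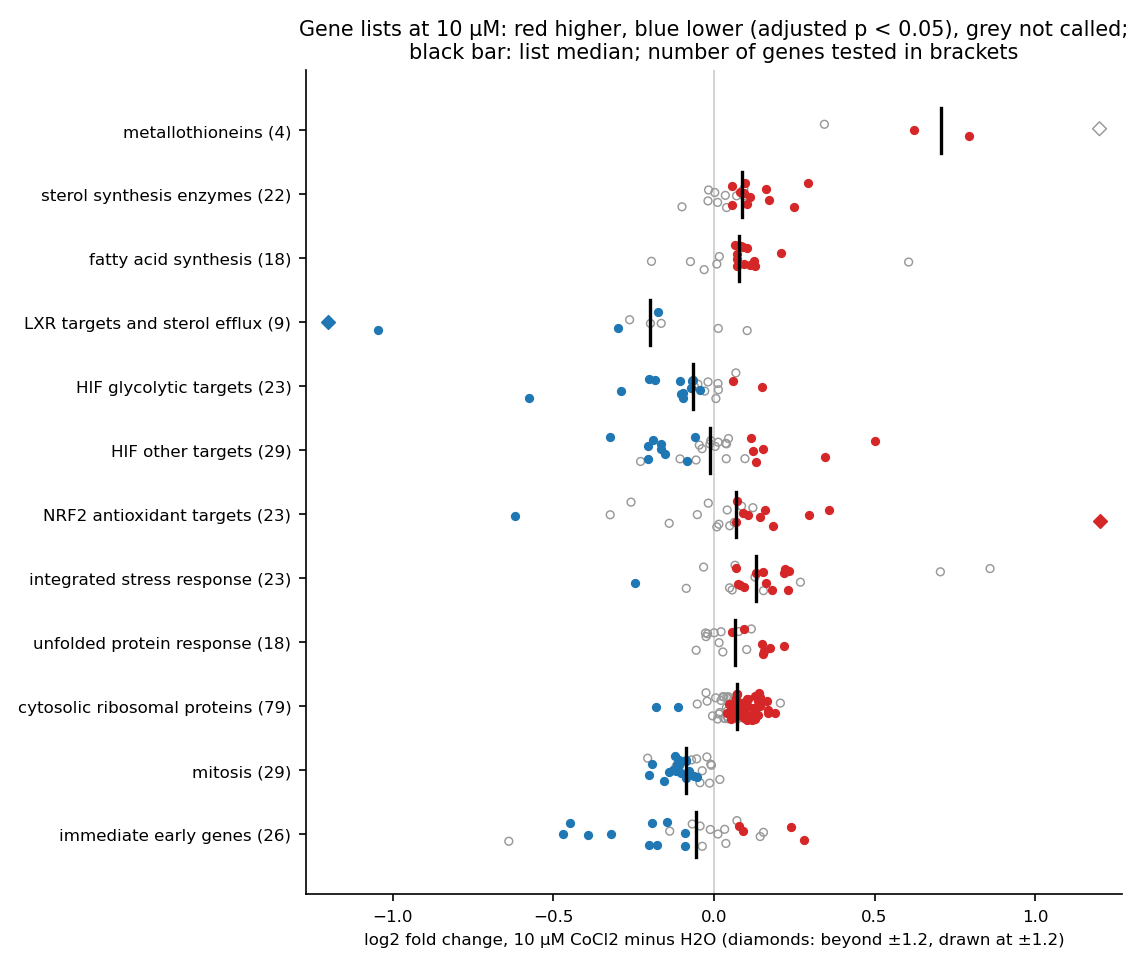
Log2 fold change at 10 µM CoCl2 against H2O of every gene tested in 12 lists, red where called higher, blue where called lower, grey where not called, with a black bar at each list's median. The bars of sterol synthesis (0.087), fatty acid synthesis (0.079) and ribosomal protein genes (0.072) lie right of 0 and those of mitosis (-0.088) and glycolytic HIF targets (-0.066) left of it.

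Glycolytic HIF targets fell more often than they rose at 10 µM. Among 23 glycolytic HIF targets, 2 were higher and 12 lower, 9 of the 12 also by DESeq2, with a median log2 fold change of -0.066. GPI, the glucose-6-phosphate isomerase, measured 1636 and 1613 CPM in H2O and 1419 and 1404 CPM at 10 µM (adjusted p 2.25e-29, log2 fold change -0.20 with SE 0.014). ENO1, an enolase, measured 4333 and 4317 CPM in H2O and 4062 and 3991 CPM at 10 µM (adjusted p 1.48e-12, log2 fold change -0.10 with SE 0.012). PFKFB4, which sets the level of a glycolytic activator, fell from 52.0 and 53.5 CPM to 43.2 and 43.1 CPM (adjusted p 9.83e-11). PDK1, which keeps pyruvate out of mitochondria, was 1 of the 2 higher, at 242 and 244 CPM in H2O and 272 and 267 CPM at 10 µM (adjusted p 2.40e-10, log2 fold change 0.15 with SE 0.02). At 50 µM against H2O, 13 of these genes were higher and 7 lower, and 18 were higher at 50 than at 10 µM (26.2% of all genes were).

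Of 29 other HIF targets, 6 were higher and 9 lower (4 and 4 by DESeq2). AK4, a mitochondrial adenylate kinase, showed the largest rise, at 66.2 and 67.3 CPM in H2O and 93.4 and 95.7 CPM at 10 µM (adjusted p 4.19e-34, log2 fold change 0.50 with SE 0.03). NDRG1, a stress protein strongly tied to hypoxia and to iron chelation, measured 237 and 236 CPM in H2O and 205 and 205 CPM at 10 µM (adjusted p 3.70e-16, log2 fold change -0.20 with SE 0.021), below water, and 287 and 285 CPM at 50 µM, above it. STC2, a secreted glycoprotein, rose by 0.15 (adjusted p 5.31e-06) and PLOD1, a collagen lysyl hydroxylase, fell by 0.16 on the log2 scale (adjusted p 2.42e-14). CA9, a carbonic anhydrase used as a hypoxia marker, measured 52.3 and 50.5 CPM in H2O and 54.8 and 57.6 CPM at 10 µM (adjusted p 0.00342, log2 fold change 0.13 with SE 0.036), and that call was lost without H2O replicate 2 (0.0915) or 10 µM replicate 2 (0.2). At 50 µM against H2O, 24 of the 29 were higher, and 26 were higher at 50 than at 10 µM.

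The HIF subunit and oxygen sensor list was 2 higher and 1 lower of 11 (1 and 0 by DESeq2). HIF1A measured 562 and 555 CPM in H2O and 574 and 594 CPM at 10 µM (adjusted p 0.00122, log2 fold change 0.065 with SE 0.016), a call lost without H2O replicate 2 (0.0515) or 10 µM replicate 2 (0.249). EPAS1, which encodes HIF-2α, was at 1.84 and 2.22 CPM in H2O and 2.45 and 2.44 CPM at 10 µM and was not called (adjusted p 0.26). EGLN3, an oxygen-sensing prolyl hydroxylase that HIF induces, rose by 0.12 (adjusted p 0.00294), lost without H2O replicate 1 (0.0692) or 10 µM replicate 2 (0.142). The hypoxia element core ACGTG or GCGTG was in 21 of 22 genes of the glycolytic list with a window. It was in 69.8% of tested genes with a window and 52.4% of all. Other lists also held it, with 88.2% of sterol synthesis, 89.5% of fatty acid synthesis and 81% of zinc transporter genes. The shares were 60% for metallothionein and 63.6% for sterol control genes. A gene counted if any of its windows matched, and the 22 genes had 48 windows, against 15984 for 10842 tested genes. Both strands of each window were searched.

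Stress response genes called were mostly higher. Of 23 NRF2 antioxidant targets, 10 were higher and 1 lower (4 and 0 by DESeq2), and 5 of the 10 held without each library in turn. NQO1, a quinone reductase, measured 33.1 and 35.6 CPM in H2O and 43.1 and 41.3 CPM at 10 µM (adjusted p 2.11e-09, log2 fold change 0.30 with SE 0.042), and the pentose phosphate enzymes PGD and TKT rose by 0.16 and 0.14 (adjusted p 5.67e-11 and 8.48e-12). Of 23 genes of the integrated stress response, which slows translation under stress, 12 were higher and 1 lower, 10 of the 12 also by DESeq2. ATF4, its transcription factor, measured 281 and 278 CPM in H2O and 319.9 and 313 CPM at 10 µM (adjusted p 8.40e-15, log2 fold change 0.18 with SE 0.019). ASNS, its asparagine synthetase target, measured 168 and 170.4 CPM in H2O and 198 and 197 CPM at 10 µM (adjusted p 2.81e-16, log2 fold change 0.22 with SE 0.022). ALDH1L2, a mitochondrial folate enzyme, was the 1 lower, at 157 and 162 CPM in H2O and 133 and 137 CPM at 10 µM (adjusted p 1.36e-16, log2 fold change -0.24 with SE 0.024). Of 18 genes of the unfolded protein response 7 were higher and 11 not called. HSPA5, the chaperone BiP, had the smallest adjusted p of them, at 488 and 497 CPM in H2O and 553 and 540.5 CPM at 10 µM (adjusted p 4.87e-14, log2 fold change 0.15 with SE 0.016). HERPUD1, a factor in the removal of misfolded proteins, had the largest rise, 0.22 (adjusted p 1.17e-07). Heat shock genes were 7 higher and 2 lower of 16 (4 and 0 by DESeq2), among them HSPA8, a constitutive chaperone, at 2929 and 2935 CPM in H2O and 3196 and 3194 CPM at 10 µM (adjusted p 2.72e-16, log2 fold change 0.12 with SE 0.012).

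Genes for cytosolic ribosomal proteins were shifted upward. Of 79, 52 were higher and 2 lower, 42 of the 52 also by DESeq2 and 36 held without each library in turn, with a median log2 fold change of 0.072. Their summed level was 37710 and 37738 CPM in H2O and 39756 and 40124 CPM at 10 µM. RPS24 measured 1104 and 1123 CPM in H2O and 1237 and 1223 CPM at 10 µM (adjusted p 1.22e-16, log2 fold change 0.14 with SE 0.014) and RPL3 1557 and 1538 CPM in H2O and 1714 and 1689 CPM at 10 µM (adjusted p 1.29e-16, log2 fold change 0.14 with SE 0.014), in neither case with overlap. At 50 µM against H2O, 74 of 79 were higher. Ribosome biogenesis genes, which build ribosomes in the nucleolus, were near the background with 4 of 30 higher (1 by DESeq2), among them NOLC1, which had the smallest adjusted p (0.078, adjusted p 9.31e-06). Nuclear genes of oxidative phosphorylation were 13 higher and 1 lower of 76 (6 and 0 by DESeq2), with ATP5F1E at 131 and 133 CPM in H2O and 148 and 149 CPM at 10 µM (adjusted p 3.20e-09, log2 fold change 0.17 with SE 0.024). Many ribosomal protein genes have processed copies, so their counts depend on how shared reads were treated.

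Mitosis genes, whose products build and run the spindle, were shifted downward. Of 29, 18 were called lower and 11 were not called, 10 of the 18 also by DESeq2, with a median of -0.088. FOXM1, which drives the mitotic programme, measured 138 and 136 CPM in H2O and 120.4 and 119 CPM at 10 µM (adjusted p 1.15e-10, log2 fold change -0.19 with SE 0.025). KIF11, a spindle motor, measured 202 and 204 CPM in H2O and 181 and 188 CPM at 10 µM (adjusted p 6.88e-08, log2 fold change -0.14 with SE 0.022). MKI67, the proliferation antigen, measured 456 and 456 CPM in H2O and 424 and 424 CPM at 10 µM (adjusted p 3.79e-07, log2 fold change -0.10 with SE 0.017). CCNB1, the mitotic cyclin, fell by 0.12 on the log2 scale (adjusted p 3.43e-06). No mitosis gene was called higher by edgeR or DESeq2, with 0 at an unadjusted p under 0.05. Replication genes were not shifted one way, with 4 higher and 5 lower of 34 (2 and 1 by DESeq2). RRM2, which makes deoxynucleotides, rose by 0.13 (adjusted p 2.47e-10) and MCM7, a helicase subunit, fell by 0.082, a call lost without H2O replicate 1 (0.0572).

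Inhibitors of the cell cycle changed in both directions. CDKN1C, an imprinted inhibitor of cyclin-dependent kinases, fell from 12.6 and 11.7 CPM to 4.84 and 4.73 CPM (chromosome 11, 2883213 to 2885773, minus strand; adjusted p 2.68e-29, log2 fold change -1.34 with SE 0.09). CDKN1A, the p53-induced inhibitor p21, rose from 16.7 and 16.6 CPM to 23.0 and 22.6 CPM (adjusted p 9.73e-12, log2 fold change 0.46 with SE 0.056). Neither gene's groups overlapped. The list as a whole was 4 higher and 4 lower of 18 (1 and 3 by DESeq2), and p53 targets were 3 higher and 3 lower of 22 (2 and 0 by DESeq2), close to the background.

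MYCN, the amplified driver of this line, was higher by a small step, at 5252 and 5231 CPM in H2O and 5577 and 5562 CPM at 10 µM (adjusted p 4.10e-10, log2 fold change 0.088 with SE 0.012), and was at 4499.5 and 4497 CPM at 50 µM. Of 12 genes of the MYC network 5 were higher and 1 lower (4 and 0 by DESeq2). MXD1, whose protein competes with MYC for MAX, measured 28.9 and 28.2 CPM in H2O and 36.1 and 35.6 CPM at 10 µM (adjusted p 6.38e-10, log2 fold change 0.33 with SE 0.045), and MAX itself rose by 0.15 (adjusted p 9.40e-06).

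Genes of neuronal identity were called in both directions. Of 15 adrenergic identity genes, 7 were higher and 3 lower (4 and 2 by DESeq2). Log2 fold changes of the 15 ran from -0.19 to 0.35, with a median of 0.058. HAND1, a factor of sympathetic development, had the largest fall, 0.19 on the log2 scale (adjusted p 1.57e-05). Of 24 neuronal cytoskeleton and synapse genes, 12 were higher and 3 lower (9 and 2 by DESeq2). SYT1, the calcium sensor of synaptic vesicles, measured 220.2 and 221 CPM in H2O and 255 and 259 CPM at 10 µM (adjusted p 1.93e-18, log2 fold change 0.22 with SE 0.02). Catecholamine genes were 1 higher and 3 lower of 12 (0 and 2 by DESeq2). The noradrenaline transporter SLC6A2 fell from 211 and 205 CPM to 187 and 183 CPM (adjusted p 5.28e-11, log2 fold change -0.17 with SE 0.022), and GCH1, which makes the cofactor of tyrosine hydroxylase, fell by 0.17 (adjusted p 7.62e-06). TH, tyrosine hydroxylase, was the 1 higher (0.094), a call lost without H2O replicate 2 (0.0599) or 10 µM replicate 1 (0.1).

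Neuropeptide and granin genes were 5 higher and 6 lower of 14 (5 and 2 by DESeq2). CHGB, a granin of secretory granules, measured 2882 and 2938 CPM in H2O and 3212 and 3172 CPM at 10 µM (adjusted p 8.44e-18, log2 fold change 0.13 with SE 0.013). NPY, neuropeptide Y, measured 74.5 and 73.7 CPM in H2O and 64.0 and 65.8 CPM at 10 µM (adjusted p 5.92e-07, log2 fold change -0.19 with SE 0.032). Among growth factor receptors, 3 of 11 were higher and 2 lower, and all 5 calls held without each library in turn. RET, the receptor for GDNF ligands, measured 400.3 and 392 CPM in H2O and 330.0 and 328 CPM at 10 µM (adjusted p 2.25e-29, log2 fold change -0.27 with SE 0.018). NGFR, the low-affinity neurotrophin receptor, measured 23.0 and 24 CPM in H2O and 17.4 and 17.8 CPM at 10 µM (adjusted p 3.01e-10, log2 fold change -0.42 with SE 0.056). IGF1R rose by 0.19 (adjusted p 1.16e-13) and GFRA1, the co-receptor of RET, by 0.53 (adjusted p 9.39e-06).

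Immediate early genes, which respond within minutes to growth signals, were 4 higher and 10 lower of 26 (3 and 7 by DESeq2). EGR1 fell from 208 and 207 CPM to 151 and 153 CPM (chromosome 5, 138465479 to 138469303, plus strand; adjusted p 2.73e-42, log2 fold change -0.45 with SE 0.023). FOS fell from 139 and 139 CPM to 105 and 107 CPM (adjusted p 2.39e-30, log2 fold change -0.39 with SE 0.026), and ARC, an activity-regulated gene of neurons, from 120.4 and 122 CPM to 96.5 and 97.4 CPM (adjusted p 2.28e-21, log2 fold change -0.32 with SE 0.027). FOSL2 and DUSP4, which belong to the same list, went up by 0.28 and 0.24 (adjusted p 8.94e-19 and 8.81e-22). In the TGF-beta and BMP list 8 of 29 were higher and 2 lower (5 and 0 by DESeq2), among them ID2 and ID3, inhibitors of differentiation induced by BMP (log2 fold change 0.24 and 0.27, adjusted p 2.39e-07 and 4.43e-09), and GREM1, a secreted BMP antagonist (0.29, adjusted p 5.55e-18).

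Mesenchymal identity genes were 4 higher and 3 lower of 20 (2 and 3 by DESeq2). Of the higher ones, FOSL2 rose by 0.28 and DCN, a proteoglycan, by 0.18 (adjusted p 8.94e-19 and 7.07e-09). PDGFRB, a growth factor receptor of mesenchymal cells, measured 39.8 and 38.7 CPM in H2O and 30.3 and 29.5 CPM at 10 µM (adjusted p 6.71e-14, log2 fold change -0.39 with SE 0.044). COL5A1, a fibrillar collagen, measured 25.0 and 25.4 CPM in H2O and 19.5 and 18.8 CPM at 10 µM (adjusted p 4.50e-10, log2 fold change -0.40 with SE 0.054). Of 18 collagen hydroxylases and lysyl oxidases, which use iron or copper, 2 were higher and 7 lower (1 and 2 by DESeq2, and 1 and 2 held without each library in turn). PLOD2, a lysyl hydroxylase induced by HIF, was at 12.1 and 11.5 CPM in H2O and 14.7 and 15.3 CPM at 10 µM (adjusted p 2.66e-05, log2 fold change 0.35 with SE 0.069). LOXL3, a lysyl oxidase, measured 82.1 and 83.3 CPM in H2O and 72.9 and 71.5 CPM at 10 µM (adjusted p 6.77e-08, log2 fold change -0.20 with SE 0.031). Of 18 interferon response genes 3 were lower and 15 not called. OAS3, which senses double-stranded RNA, fell from 86.6 and 83.7 CPM to 69.2 and 66.2 CPM (adjusted p 4.33e-18, log2 fold change -0.33 with SE 0.031).

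Chromatin enzymes that need iron and 2-oxoglutarate were near the background, with 5 of 29 higher and 2 lower (2 and 0 by DESeq2). TET3, which oxidises 5-methylcytosine, measured 113 and 113 CPM in H2O and 124 and 124 CPM at 10 µM (adjusted p 1.02e-05, log2 fold change 0.14 with SE 0.026), while TET1 (adjusted p 0.344) and TET2 (adjusted p 0.901) were not called. KDM3A, a histone demethylase and HIF target, rose by 0.11 (adjusted p 2.11e-04). Of 12 subunits and partners of Polycomb repressive complex 2, EZH2, its methyltransferase, was the 1 called, at 55.8 and 52.6 CPM in H2O and 58.6 and 57.5 CPM at 10 µM (adjusted p 0.0293, log2 fold change 0.099 with SE 0.035), and that call was lost without H2O replicate 2 (0.452), 10 µM replicate 1 (0.183) or 10 µM replicate 2 (0.0832). DESeq2 called 0 of the 12, and 3 had an unadjusted p under 0.05 in edgeR. Imprinted genes were 4 higher and 5 lower of 23 (2 and 3 by DESeq2). Besides CDKN1C, DLK1 fell from 803 and 796 CPM to 696 and 690.0 CPM (adjusted p 2.89e-25, log2 fold change -0.21 with SE 0.015).

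The 12 largest rises among genes at 1 CPM or more that both tools called, with no overlap between groups, were SEPTIN14, TFRC, MT1X, CRH, ARHGAP36, AP006333.1, MT2A, DEXI, CD68, ZNF814, ZNF667 and AVIL. SEPTIN14, a septin of the cytoskeleton, measured 1.12 and 0.756 CPM in H2O and 2.34 and 2.68 CPM at 10 µM (adjusted p 2.93e-09, log2 fold change 1.42 with SE 0.20). CRH, corticotropin-releasing hormone, measured 17 and 17.3 CPM in H2O and 28.7 and 28.7 CPM at 10 µM (adjusted p 2.20e-27, log2 fold change 0.74 with SE 0.053), and was at 73.6 and 72.7 CPM at 50 µM. CD68, a lysosomal membrane protein best known from macrophages, measured 5.31 and 5.09 CPM in H2O and 7.92 and 7.92 CPM at 10 µM (adjusted p 1.41e-07, log2 fold change 0.61 with SE 0.097). PTPRC, which marks all leukocytes, was at 0 in these libraries. All 12 were called whichever of the 4 libraries was left out, as were the 12 largest falls.

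**Figure D4:**
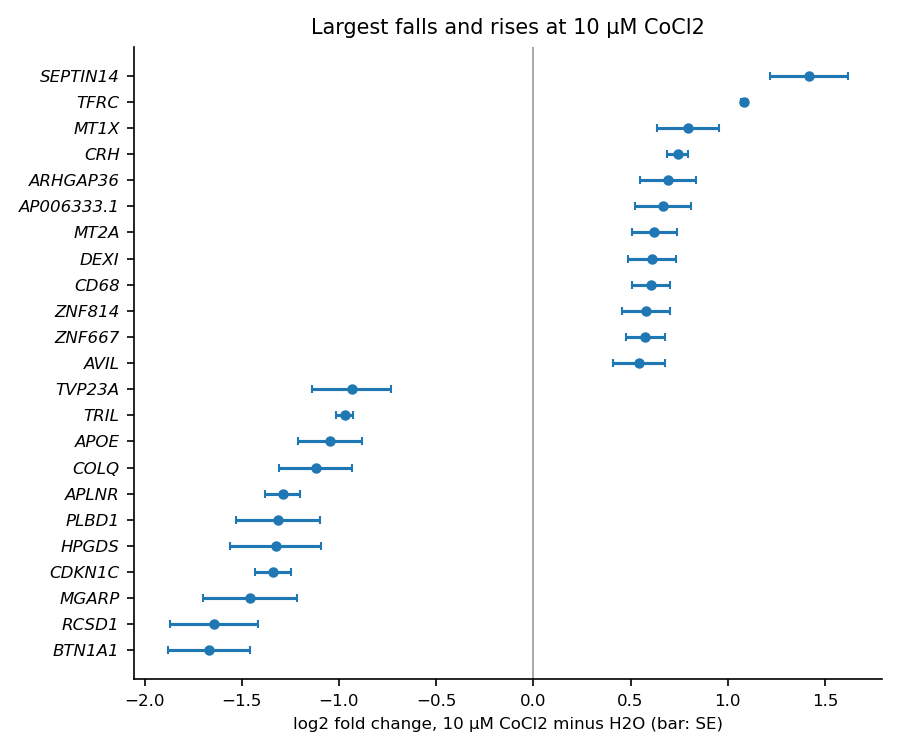
Log2 fold change (points) with SE (bars) at 10 µM CoCl2 against H2O for the 12 largest rises and 11 of the 12 largest falls. The falls run from -0.93 to -1.67 and the rises from 0.54 to 1.42, and TFRC has the smallest SE, 0.016.

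Among these 12 largest falls were those of BTN1A1, RCSD1, MGARP, CDKN1C, HPGDS, PLBD1, APLNR, COLQ, APOE, TRIL and TVP23A. BTN1A1, a butyrophilin, measured 2.53 and 2.47 CPM in H2O and 0.712 and 0.849 CPM at 10 µM (adjusted p 2.50e-11, log2 fold change -1.67 with SE 0.21). APLNR, the receptor for apelin, measured 12.3 and 13.1 CPM in H2O and 5.7 and 4.73 CPM at 10 µM (adjusted p 7.55e-29, log2 fold change -1.29 with SE 0.088), and its level at 50 µM, 4.77 and 5.01 CPM, was not called different from that at 10 µM (-0.084, adjusted p 0.564). TRIL, a membrane protein that works with toll-like receptors, measured 45.7 and 47.8 CPM in H2O and 24.5 and 23.2 CPM at 10 µM (chromosome 7, 28953358 to 28958330, minus strand; adjusted p 6.14e-47, log2 fold change -0.97 with SE 0.045). HPGDS makes prostaglandin D2, and RCSD1 encodes an actin-capping regulator; they fell by 1.33 and 1.64 on the log2 scale (adjusted p 2.10e-06 and 9.87e-10).

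Some genes had their highest or lowest level at the low dose. By the size of the smaller of the differences from H2O and from 50 µM, both called by both tools, the 5 genes highest at 10 µM were KCND2, DGKB, HMGCS1, ROBO2 and IDI1. KCND2, a potassium channel, measured 16.1 and 15.5 CPM in H2O and 19.8 and 19.4 CPM at 10 µM and 14.9 and 14.8 CPM at 50 µM. ROBO2, an axon guidance receptor, measured 76.4 and 75.5 CPM in H2O and 90.2 and 90.6 CPM at 10 µM and 63.3 and 58.0 CPM at 50 µM. The 5 lowest were INSRR, PYGL, ISLR2, FCHSD1 and CD9. PYGL, liver glycogen phosphorylase, measured 6.29 and 5.95 CPM in H2O and 4.44 and 4.14 CPM at 10 µM and 5.6 and 6.07 CPM at 50 µM, and CD9, a tetraspanin, 14.7 and 16.8 CPM in H2O and 10.3 and 10.2 CPM at 10 µM and 14.2 and 12.9 CPM at 50 µM. INSRR, a receptor related to the insulin receptor, measured 10.2 and 10.1 CPM in H2O and 7.26 and 7.51 CPM at 10 µM and 9.6 and 11.1 CPM at 50 µM, and it overlaps another gene on the opposite strand. The 2 differences share the 10 µM libraries, so a chance deviation of these libraries would enter both, and the genes were chosen on these values; they are given as a description.

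**Figure D5:**
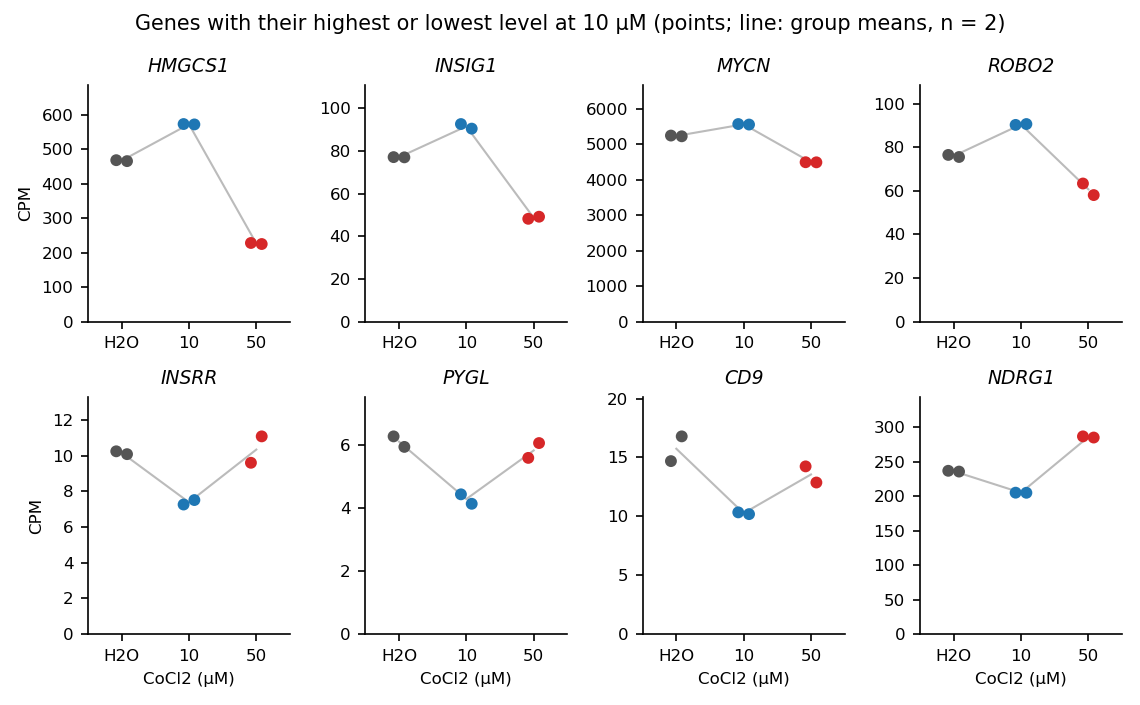
Level (CPM, vertical axis from 0) in each library for 8 genes, 4 of them lowest at 10 µM and 4 highest, with a line through the group means. HMGCS1 was at 573 and 572 CPM at 10 µM against 468 and 465 CPM in H2O and 228 and 225 CPM at 50 µM.

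Counting used no strand, so reads of overlapping genes cannot be told apart. Among the genes named for a change here, this applies to ABCG8, CD320, TCN2, SREBF1, MBTPS2, FADS2, GPI, PFKFB4, CA9, ALDH1L2, ATP5F1E, FOXM1, MCM7, MXD1, MAX, LOXL3, SLC39A3, DEXI, ZNF814, AVIL, MGARP, COLQ, TVP23A and FCHSD1 besides those noted with their partner.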

How the data were processed

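RNA-seq libraries of 4 batch 1 samples (2 H2O, 2 CoCl2 10 µM) were compared, with the 2 CoCl2 50 µM libraries of that batch in the same fit. Libraries were strand-specific and made with oligo-dT, per the labels' protocols. The deposited files hold raw read counts per gene, which the authors made with featureCounts 1.5.3 on exons by gene name with a GENCODE 33 protein-coding annotation and no strand option, per the file headers. The submitters' processing notes also name Trimmomatic 0.36, STAR 2.6.1d and hg38 (GRCh38). The tables hold no row without a gene name. The 13 mitochondrial genes stood at 0 in every library and were not analysed.

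Genes passing filterByExpr (13636 of 19923) were tested with edgeR 4.0.16 (R 4.3.3): TMM normalization, 1 coefficient per group, robust quasi-likelihood fit, Benjamini-Hochberg adjustment over all genes tested, called at an adjusted p under 0.05. The negative binomial dispersion, estimated at 7.66e-05, was held at just above 1e-04, because smaller values gave faulty deviances. CPM are TMM-scaled. DESeq2 1.42.0 and the other alternatives are in the closing section. With 2 libraries a group and 35319857 to 39540111 counts each, small changes can pass the test, and p-values cover the spread between these libraries.

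Genes were named by rule: the 12 largest rises and falls called by both tools at a mean of 1 CPM or more without overlap, members of the iron, metallothionein, zinc, sterol and fatty acid lists, the 4 members of the other lists with the smallest adjusted p and a few known genes, and the 5 highest and lowest at 10 µM. CHGA, HAND2, PHOX2A, GATA3, VIM, CD44, FN1, COL1A1 and PRRX1, used as cell markers, fall outside it. Some genes that meet the rule are not reported here. The comparison and the lists were chosen with earlier results of these data known.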

Additional observations from a re-analysis of the deposited data

How the results depend on the processing

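With 2 libraries a group, the number of calls depended on the tool and on single libraries. DESeq2 called 1121 genes at 10 µM (613 higher, 508 lower), 55 of them with at least a 1.5-fold change (12 and 43), and 6 sterol synthesis and 10 mitosis genes. A test against a 1.2-fold change (glmTreat) called 95 genes (17 higher, 78 lower). Leaving out 1 library gave 1860 to 2258 calls, the fewest without 10 µM replicate 2, and 2063 without H2O replicate 1. Over the same fits the calls of at least 1.5-fold were 143 to 170, sterol synthesis 8 to 8, fatty acid synthesis 8 to 11, ribosomal proteins 41 to 47, mitosis 12 to 15, glycolytic HIF targets 10 to 11, stress response 11 to 12 and the test between doses 5979 to 6436. The cause of these differences was not tested.

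The labels do not say whether the replicate numbers pair the samples. Replicate differences correlated at 0.0224, -0.0707 and -0.0456 across genes between the groups. Much of the spread between replicates was counting error (chi-square per gene 1.32 in H2O, 1.23 at 10 µM and 1.47 at 50 µM). Low correlations therefore cannot exclude a pairing. A fit with the replicate number as a block gave 2968 calls, 195 of at least 1.5-fold, and 7113 between the doses; MT1F was then called (adjusted p 0.049) and MBTPS2 was not (0.0608). RLE normalization gave 3087 calls, no filter on low counts 2600, the 4 libraries alone 3267, the legacy quasi-likelihood method 3090, and no floor on the dispersion, added after seeing the data, 2989. The metal element was in 3 metallothionein promoters with TGCGCNC alone and in 5 with both cores. The 24 largest changes among genes at 1 CPM or more that both tools called kept their direction in every fit that left out 1 library. Of the 150 genes tested and named by rule, none reversed direction in an alternative run where that run or the main fit called it. Genes called in neither fit were not checked for a change of sign. Metallothionein counts were low, which limits their precision.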

Other observations

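Zinc finger genes named ZNF were looked at after ZNF814 and ZNF667 appeared among the largest rises, so the group was chosen on these values and nothing is supported by it. Of 468 tested, 95 were called higher and 14 lower at 10 µM, against 11.6% and 11.1% of all genes. Chromosome 19 holds large clusters of these genes. There, 65 of 229 were higher (28.4%) and 1 lower (0.437%), with a median log2 fold change of 0.14. Those on other chromosomes were 30 higher and 13 lower of 239 (median 0.026), and the other 786 genes of chromosome 19 had a median of -0.017. DESeq2 called 15 of the 229 higher and 0 lower, and in edgeR none changed by 1.5-fold with a call. The member with the smallest adjusted p was ZNF667, at 4.83 and 5.09 CPM in H2O and 7.09 and 7.67 CPM at 10 µM (adjusted p 1.56e-06, log2 fold change 0.58 with SE 0.10), followed by ZNF441 at 7.95 and 8.55 CPM in H2O and 11.6 and 10.9 CPM at 10 µM (adjusted p 3.41e-06). At 50 µM against H2O, 173 of the 229 were higher and 5 lower, with a median of 0.40. Many of these genes are close copies, and 80 of the 229 overlap another gene.

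Exon length, summed per gene, moved slightly with the fold change. The share of genes called higher was 8.3%, 8.42%, 11.6% and 18.2% from the shortest to the longest of 4 equal bins by exon length. In the same order, the share called lower was 9.77%, 12.4%, 11.9% and 10.4%. The median log2 fold changes were -0.0095, -0.011, -0.00079 and 0.015. The median exon length was 5312 bases for the chromosome 19 ZNF genes, between the medians of bins 2 and 3 (4267 and 6355 bases), and 3002 bases for the ribosomal protein genes, between those of bin 1 (2409 bases) and bin 2. The part of length in either result was not tested.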
